A study of Mus musculus with 17 samples.

Results

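Unstimulated primary macrophages were compared with an immortalised macrophage line by polyA RNA-seq in 4 of the 17 samples of the series. The members were gene models on autosomes with at least 200 exonic bases and a mean of at least 1 RPKM (reads scaled to exonic length and library size) over these 4 libraries, which left 10289 of 24453 gene models, 9975 of them protein-coding. The primary cells were thioglycollate elicited macrophages (TGEMs), which are recruited into the peritoneum of a mouse by an irritant and flushed out, here 3 days after injection of 8-week animals. They were cultured in medium with 10% serum and given PBS as vehicle, and there was 1 library from Balb/cJ mice and 1 from C57Bl/6EiJ mice, without the number of animals being given. The immortalised cells (iBMDMs) were C57Bl/6EiJ bone marrow cells of passage 3 to 8 transformed by a retrovirus that carries myc and Braf V600E. They also carried Cas9 with EGFP and a lentiviral scramble control guide (Scramble, 2 libraries), and received vehicle. The methods describe sorting for the viral marker tagBFP2, but the titles of both Scramble libraries name zsGreen, which the methods do not mention. The methods also describe bone marrow medium with 30% L-cell conditioned medium and 20% serum after infection. As a description, 3 TGEM libraries treated for 1 h with the TLR4 agonist Kdo2 lipid A (KLA) and 6 libraries of the same iBMDM line edited at Atf3, Jun or Jund were set beside them, 13 libraries in all.

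Macrophages are held in their lineage by the factor PU.1 together with C/EBP and AP-1 proteins, and by signals of the growth factor receptor Csf1r. Elicited peritoneal macrophages are largely post-mitotic, rich in lysosomes and specialised in taking up debris and lipid. Active RAF kinases and MYC drive cells into the cycle, and MYC is known for raising ribosome production and nucleotide synthesis.

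Several properties moved together with the kind of cell. The names of the TGEM and Scramble libraries carry different letter codes and different date-like numbers, whose meaning the labels do not give, and medium and preparation also differed, so that these cannot be told apart from the kind of cell. Strain differed for the Balb/cJ library only, since the other TGEM library and both Scramble libraries were C57Bl/6EiJ. All 4 libraries are labelled male, but Xist (X-linked, outside the members) measured 20.6 and 19.2 RPKM in TGEMs and 0.029 and 0 in Scramble, while the Y-linked Eif2s3y measured 0 and 0.749 RPKM in TGEMs and 34.8 and 45.9 in Scramble. The sex of the cells therefore goes against the label in TGEMs and cannot be told apart from the kind of cell either, and the members were autosomal. Depth recovered from the RPKM steps was 2342455 and 11404462 reads in TGEMs (Balb/cJ first, as in every pair of values that follows) and 1929987 and 1711540 in Scramble, of which 76.3% to 84.8% were exonic. The TGEM libraries of the 2 strains differed 2-fold or more in 2035 members (19.8%) and the Scramble libraries in 340 (3.30%), against 40.5% to 44.6% between a TGEM and a Scramble library. At the limit of 1 RPKM the members AI427809, Tgfb2 and Bsn lay just inside (means of 1.0005, 1.0025 and 1.0045), and Purg, P2ry12 and Peli3 just outside (0.99975, 0.99975 and 0.999).

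The transcriptomes were far apart. Of 10289 members, 584 (5.68%) were called higher and 1103 (10.7%) lower in TGEMs, by limma-trend on log2(RPKM + 1) at an adjusted p under 0.05, a 2-fold difference and a mean of 16 RPKM or more in either group. Among the 4408 members that reached 16 RPKM the shares were 13.2% and 25.0%. All log2 differences are TGEM minus Scramble on the log2(RPKM + 1) scale, with the SE of the fit and n = 2 libraries a group, and they understate the change of genes with low values. The median difference over all members was −0.31, and with equal library medians the same data gave 822 genes higher and 773 lower, so that 51.5% of calls were higher against 34.6%. The calls needed both Scramble libraries, since without Scramble 1 or without Scramble 2 the number of called genes was 0 (limma-trend, smallest adjusted p 0.140 and 0.144, with 2234 and 2059 genes at an unadjusted p under 0.05), although all 1687 called genes kept their direction and 1647 and 1636 of them a 2-fold difference. Without the Balb/cJ library, where all libraries compared were of 1 strain, and without the C57Bl/6EiJ library all 1687 called genes kept their direction, and 1614 and 1591 of them a 2-fold difference. Such fits leave 1 TGEM library that is assumed to vary like the Scramble libraries, which were closer to each other than the TGEM libraries were. Calls kept or lost without a TGEM library are therefore a description. A gene with a mean under 1 RPKM in one group entered through the other group alone, which set its direction, so that such genes are a description. In every gene list with 0 calls in a direction by limma-trend, limma-voom on the recovered reads also called 0 in that direction.

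**Figure D1:**
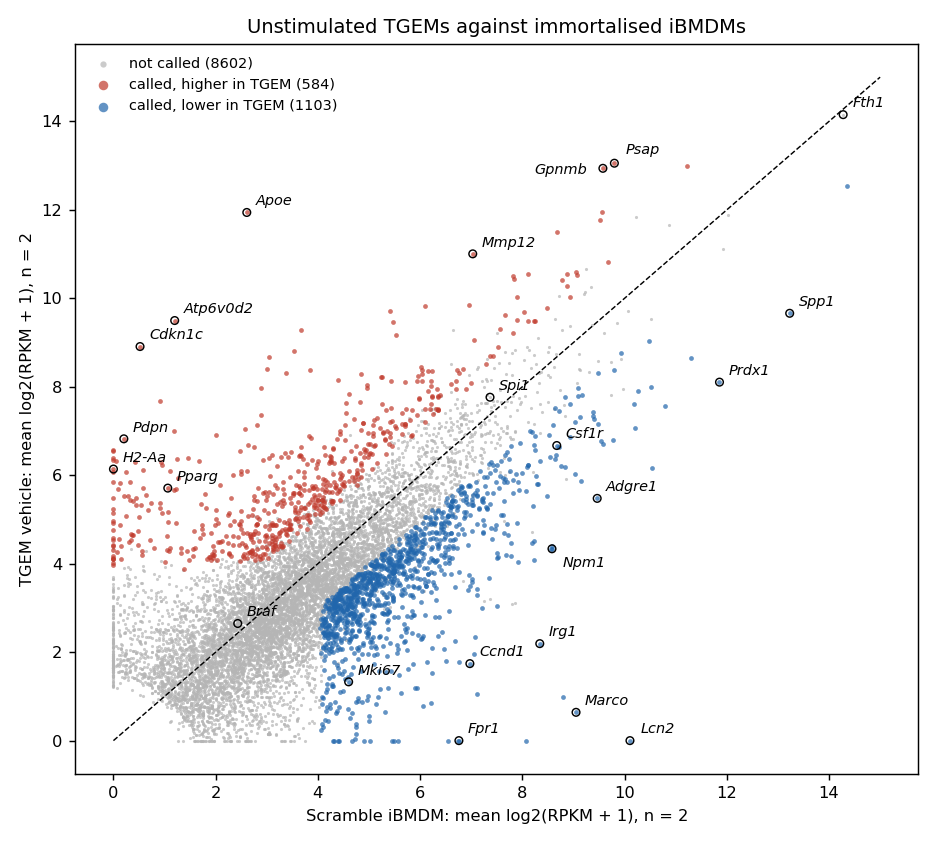
Mean log2(RPKM + 1) of the 2 TGEM vehicle libraries (vertical axis) against the 2 Scramble libraries (horizontal axis) for each of 10289 members, with called genes in red (584 higher in TGEM) and blue (1103 lower) and the line of equal values dashed. Apoe and Cdkn1c lie far above the line, Lcn2 and Marco far below it, and Spi1, Braf and Fth1 near it.

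The largest differences were between genes that were abundant in one kind of cell and near 0 in the other. Apoe, the apolipoprotein with which macrophages export cholesterol (chromosome 7, 19696244 to 19698621, mm10), measured 3383 and 4567 RPKM in TGEMs and 4.80 and 5.41 RPKM in Scramble, a difference of 9.33 ± 0.31 (limma-trend adjusted p = 0.000375). Cdkn1c, an inhibitor of cyclin-dependent kinases (chromosome 7, 143458339 to 143461050), measured 667 and 345 RPKM in TGEMs and 0.273 and 0.616 RPKM in Scramble and differed by 8.39 ± 0.40. Both genes were high in the 2 TGEM strains, and over the 8 iBMDM libraries they reached at most 19.0 and 0.616 RPKM. In the other direction Lcn2, an iron-siderophore binding protein of innate immunity (chromosome 2, 32384637 to 32387739), measured 0 and 0 RPKM in TGEMs and 1305 and 929 RPKM in Scramble and was at least 4324-fold lower in TGEMs, a bound set by 3 reads over the group that covers counting error only. Marco, a scavenger receptor for bacteria and particles (chromosome 1, 120474538 to 120505084), measured 0 and 1.43 RPKM in TGEMs and 557 and 503 RPKM in Scramble and differed by −8.41 ± 0.46 (limma-trend adjusted p = 0.000974). Lcn2 and Marco were not high in every iBMDM library, since both JunDKO libraries held 3.05 and 0 RPKM of Lcn2 and 5.57 and 6.92 of Marco.

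The 15 protein-coding genes with the largest rise in TGEMs also held the proton pump subunit Atp6v0d2 (8.30), the exchange factor for Ral GTPases Rgl1 (6.76), podoplanin (Pdpn, 6.62), coagulation factor F7, the lysosomal phosphatase Acp5, Pianp, the inhibitory ligand Cd200, fibronectin (Fn1, 6.27), H2-Aa, Il3ra, Mamdc2 (5.89), Dio2 and Gprc5b (5.84). F7, Acp5, Pianp, Cd200, H2-Aa, Il3ra and Dio2 had 0 reads in both Scramble libraries and were at least 267, 246, 237, 228, 93.2, 132 and 413-fold higher in TGEMs. The 2 strains differed over 8-fold in Acp5 (31.7 and 269.8 RPKM) and over 10-fold in Mamdc2 (23.6 and 251 RPKM), with all TGEM values above all Scramble values, and the calls of both were lost with limma-voom on the recovered reads (adjusted p = 0.128 and adjusted p = 0.115). The 15 genes with the largest fall held, besides Lcn2 and Marco, the protease inhibitor Stfa3 (at least 501-fold), the ribosomal protein genes Rpl35 and Rpl19, the formyl peptide receptors Fpr1 and Fpr2, 2010005H15Rik, Irg1, the collagen cross-linking enzyme Lox (−6.06), Cd300e (at least 411-fold), Ctla2b, Slfn4 (−5.36), Ly6a (−5.27) and cyclin D1 (Ccnd1, −5.23).

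**Figure D2:**
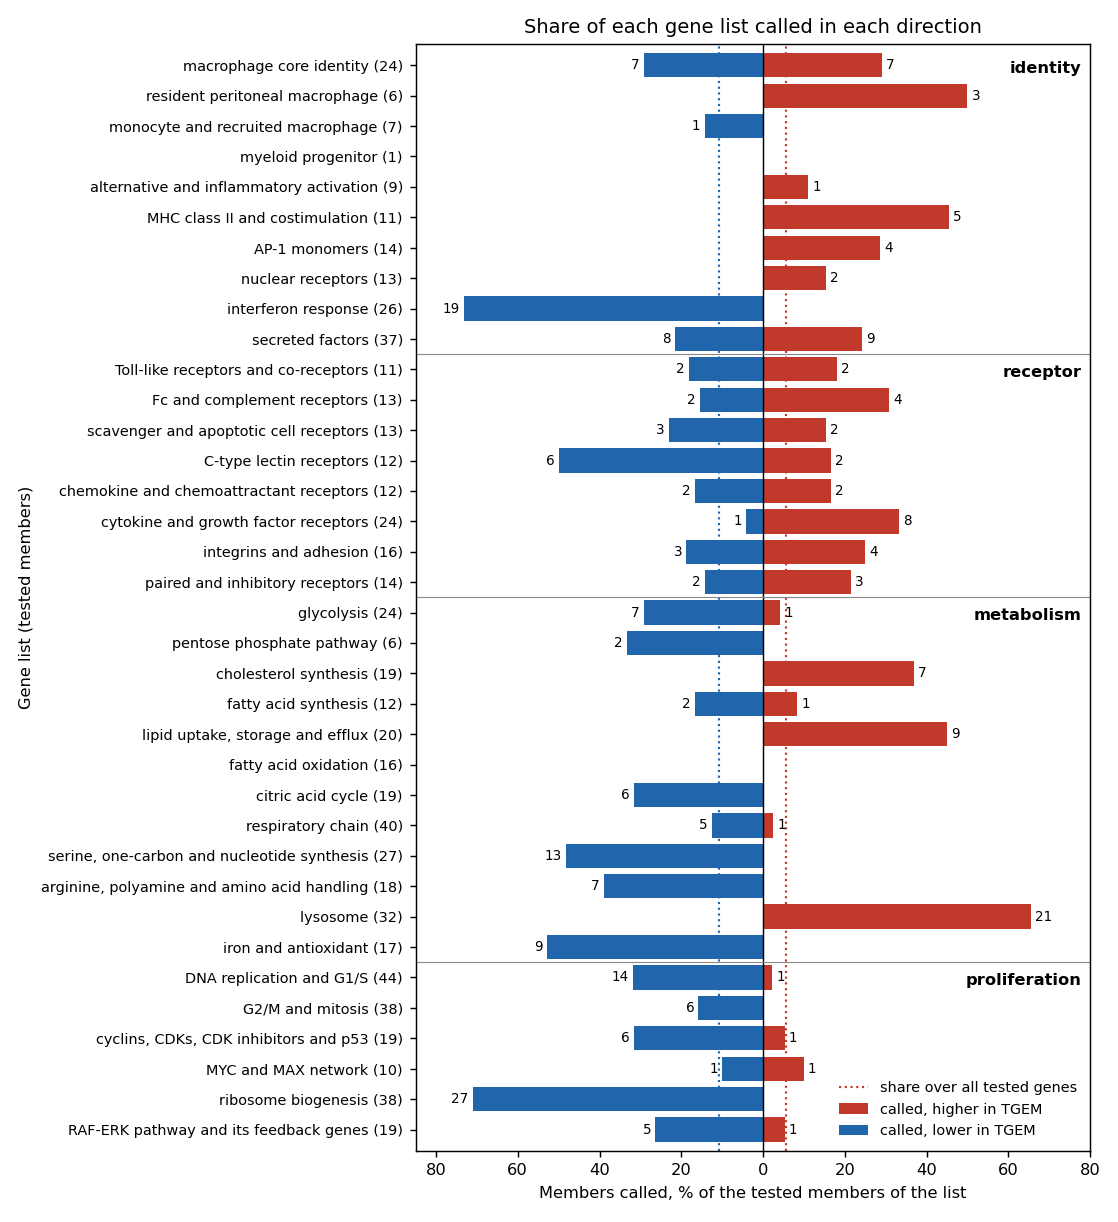
Percent of the tested members of each gene list that were called higher in TGEM (red, to the right) or lower (blue, to the left), with the number called at each bar, the number tested in brackets and the shares over all 10289 members as dotted lines. Most tested members were called higher in the lysosome list (21 of 32) and lower in the interferon response (19 of 26) and ribosome biogenesis lists (27 of 38).

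Both kinds of cell expressed the genes that define macrophages. All 24 genes of the core identity list passed the filter, and the median difference was 0.75. In TGEMs 7 were called higher (11 with equal library medians) and 7 lower, beside 5.68% and 10.7% of all members. All but 2 of the list reached 16 RPKM, and of all members at that level 13.2% were higher and 25.0% lower. Spi1, which encodes PU.1, measured 182 and 257 RPKM in TGEMs and 188 and 144 RPKM in Scramble and did not pass (0.40 ± 0.33, limma-trend adjusted p = 0.403). The surface proteins split. Csf1r, the receptor for macrophage colony-stimulating factor, measured 58.6 and 173 RPKM in TGEMs and 474 and 350.2 RPKM in Scramble (−2.0 ± 0.54, limma-trend adjusted p = 0.0394), and Adgre1, which encodes the F4/80 antigen, measured 31.1 and 60.7 RPKM in TGEMs and 669 and 744 RPKM in Scramble (−3.99 ± 0.39, limma-trend adjusted p = 0.00285). Both were lower in TGEMs and did not overlap between the groups. The call of Csf1r was lost without the Balb/cJ library (−1.23, limma-trend adjusted p = 0.0678). Itgam (−2.55), the LPS co-receptor Cd14 (−2.80), Aif1 (−3.03) and the high-affinity IgG receptor Fcgr1 (−2.28) were also called lower. The endolysosomal genes Cd68 (4050 and 2053 RPKM in TGEMs and 467 and 353 RPKM in Scramble, 2.82 ± 0.42) and Ctss (2.41), the apoptotic cell receptor Mertk (1.82) and the factors Cebpa (70.0 and 139 RPKM in TGEMs and 5.51 and 5.99 RPKM in Scramble, 3.89 ± 0.39) and Cebpb (2.32) were called higher in TGEMs. Over 13 libraries the groups overlapped in Mertk and Cebpb, which reached 36.8 and 300 RPKM in iBMDM libraries. The call of Cebpb was lost with the GC correction (0.74, limma-trend adjusted p = 0.197) and with no filter on low values (limma-trend adjusted p = 0.0598). That of Csf1r was lost also with no filter (limma-trend adjusted p = 0.0721) and with a pseudocount of 0.1. Over all members the difference rose with exonic GC content, with a rank correlation of 0.335 over genes, given as a description.

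Some genes of resident peritoneal macrophages were expressed in TGEMs, and others were at or near 0. The summed level of the list was 154 and 193 RPKM in TGEMs and 5.05 and 2.83 in Scramble. Of the 15 listed, 6 were tested and 3 called higher in TGEMs, but 5 of the 6 had a mean under 1 RPKM in Scramble and passed the limit through the TGEM libraries alone, so that their direction was set by the filter. Fn1, the matrix protein fibronectin, measured 75.3 and 81.9 RPKM in TGEMs and 0.0660 and 0 RPKM in Scramble (6.27 ± 0.29, limma-trend adjusted p = 0.000694). Coagulation factor F10 measured 37.1 and 82.5 RPKM in TGEMs and 0.193 and 0 RPKM in Scramble (5.69 ± 0.44). The B cell chemoattractant Cxcl13 measured 29.5 and 13.6 RPKM in TGEMs and 0 and 0 RPKM in Scramble (at least 30.3-fold), a call that was lost without the Balb/cJ library (3.87, limma-trend adjusted p = 0.0163) since the mean was then under 16 RPKM. Gata6, the factor that defines resident cells of the large peritoneal type, measured only 3.08 and 5.64 RPKM in TGEMs and 0 in all 8 iBMDM libraries, at least 16.9-fold more in TGEMs, and was under the 16 RPKM that a call needs. Another 8 of the list had a mean under 1 RPKM and 1 is X-linked. Of these 8, the resident marker genes Timd4 and Alox15 were listed at 0 in both TGEM libraries, and Lyve1 was at 0.164 and 0 RPKM. Rarb, in contrast, was at 1.91 and 1.84 RPKM in TGEMs and at 0 in both Scramble libraries. Selp, Ltbp1, F5 and Naip1 lay under 1 RPKM in both TGEM libraries. The X-linked Vsig4 measured 0.900 and 3.20 RPKM in TGEMs and 0 in both Scramble libraries.

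In the list of MHC class II and costimulation 5 of 11 tested members were called higher in TGEMs and 0 lower (2 lower at an unadjusted p under 0.05). Of the 11, 5 had a mean under 1 RPKM in Scramble and passed the limit through the TGEM libraries. The class II chains H2-Aa (52.3 and 92.3 RPKM in TGEMs), H2-Ab1 (62.3 and 88.4) and H2-Eb1 (11.3 and 43.3) reached at most 0.986 RPKM in Scramble and 2.71 over the 8 iBMDM libraries. The integrin Itgax, also known as CD11c, measured 92.3 and 156 RPKM in TGEMs and 3.24 and 2.78 RPKM in Scramble (4.92 ± 0.35, limma-trend adjusted p = 0.00162), and the maturation marker Cd83 rose by 4.35. The call of H2-Eb1 was lost without the C57Bl/6EiJ library (3.62, limma-trend adjusted p = 0.0185), where its mean was under 16 RPKM, and with limma-voom (adjusted p = 0.0572). The invariant chain Cd74 (126 and 256 RPKM in TGEMs and 87.6 and 62.1 RPKM in Scramble, 1.27) and the peptide loading genes H2-DMa (2.81) and H2-DMb1 (0.65) were not called. Neither were the costimulatory ligands Cd80 (−1.67) and Cd86 (−1.78), whose differences lay below 0. H2-DMa, Cd80 and Cd86 were under the 16 RPKM that a call needs. Lists of activation and origin are given beside the 5.68% of all members called higher and the 10.7% called lower. Of 9 tested genes of alternative and inflammatory activation 1 was called higher and 0 lower (3 and 2 at an unadjusted p under 0.05, and 2 and 0 called without the Balb/cJ library), of 7 monocyte genes 0 higher and 1, Itga4, lower (3 and 3), and the 1 tested gene of myeloid progenitors was not called. Mrc1, the mannose receptor, measured 22.9 and 38.8 RPKM in TGEMs and 1.18 and 0.995 RPKM in Scramble (3.89), but the 8 iBMDM libraries spanned 0.995 to 63.2 RPKM and overlapped with the 5 of TGEMs.

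AP-1 dimers are the subject of the series, and 4 of their 14 tested monomers were called higher in TGEMs and 0 lower (7 and 0 at an unadjusted p under 0.05), beside 5.68% and 10.7% of all members, with a median of 0.84. Jun measured 100.0 and 71.1 RPKM in TGEMs and 17.6 and 18.5 RPKM in Scramble (2.16 ± 0.31, limma-trend adjusted p = 0.00691). Jund measured 65.0 and 108 RPKM in TGEMs and 9.19 and 8.33 RPKM in Scramble (3.12 ± 0.35). Atf3, a factor induced by stress and Toll-like receptors, measured 232 and 259 RPKM in TGEMs and 80.7 and 77.4 RPKM in Scramble (1.62 ± 0.28, limma-trend adjusted p = 0.0117). Atf4, a factor of amino acid stress, differed by 1.14 ± 0.28, and its call was lost with the GC correction (0.75, limma-trend adjusted p = 0.0823), which left 3 of the 14 called. In all 4 both TGEM libraries lay above both Scramble libraries, and over 13 libraries the groups overlapped in Jund, which reached 83.0 RPKM in an iBMDM library. Of 13 nuclear receptors tested 2 were called higher and 0 lower (6 and 0 at an unadjusted p under 0.05), and 4 were called higher with equal library medians, with quantile normalization and with all 13 libraries in the fit. The shares of all members are those given above. Pparg, a lipid-sensing receptor, measured 75.2 and 34.9 RPKM in TGEMs and 0.880 and 1.32 RPKM in Scramble (4.65 ± 0.43, limma-trend adjusted p = 0.00263) and stayed at 0 to 1.32 RPKM over the 8 iBMDM libraries. Its dimer partner Rxra rose by 1.66 ± 0.31, but it reached 25.3 RPKM in an iBMDM library, so that the groups overlapped over 13 libraries.

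Interferon-induced genes were far lower in TGEMs. Of 26 tested 19 were called lower and 0 higher (1 at an unadjusted p under 0.05), beside 10.7% and 5.68% of all members. The median was −2.58. Of the 26, 3 had a mean under 1 RPKM in TGEMs and passed the limit through Scramble, Cxcl10 among them. In both TGEM libraries 23 lay below Scramble, as did 44.6% of all members. The antiviral Ifit1 measured 1.30 and 1.30 RPKM in TGEMs and 53.1 and 64.3 RPKM in Scramble (−4.69 ± 0.29, limma-trend adjusted p = 0.00113). Ifit3 (−4.56), the deubiquitylating enzyme Usp18 (−4.36), Ifit2 (−4.15) and the chemokine Cxcl10 (−4.18) were of a like size. The summed level of the list was 314 and 267 RPKM in TGEMs and 1719 and 1481 in Scramble. With KLA the sum reached 1120 RPKM in 1 TGEM library, just under the lowest value of 1125 over the 8 iBMDM libraries.

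Secreted factors went both ways, with 9 of 37 tested called higher and 8 lower, beside 5.68% and 10.7% of all members. More were called lower without the C57Bl/6EiJ library. Of the 37, 4 had a mean under 1 RPKM in Scramble, Mmp14 and Il1a among them, and 3 in TGEMs, Lcn2 among them, and these passed the limit through the other group alone. Mmp12, macrophage elastase, measured 2487 and 1697 RPKM in TGEMs and 119 and 142 RPKM in Scramble (3.98 ± 0.34, limma-trend adjusted p = 0.00219), and Mmp14 (5.04), Il1a (4.20) and Ccl6 (3.23) were also higher. Osteopontin (Spp1), a phosphoprotein of matrix and inflammation, measured 679 and 963 RPKM in TGEMs and 10342 and 8932 RPKM in Scramble (−3.57 ± 0.34). The acute-phase protein Saa3 (−3.12), the monocyte chemokine Ccl7 (−3.90) and Lcn2 were lower as well. Fth1, the ferritin heavy chain and the gene with the highest value in both TGEM libraries and Scramble 1, measured 27861 and 11902 RPKM in TGEMs and 22402 and 17582 RPKM in Scramble and did not pass (−0.12 ± 0.50, limma-trend adjusted p = 0.868), and its sign turned with library scaling.

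Receptor genes went both ways, with 25 of 110 tested called higher in TGEMs and 20 lower. Of the 88 that reached 16 RPKM in either group 28.4% were higher and 22.7% lower, beside 13.2% and 25.0% of all members at that level, so that the lower share was near that of all genes. In the Toll-like receptor list Ly86, which encodes MD-1, measured 36.2 and 53.1 RPKM in TGEMs and 0 and 0 RPKM in Scramble, at least 53.6-fold higher in TGEMs, and passed the limit through the TGEM libraries alone. The trafficking chaperone Unc93b1 rose by 1.53, a call lost with the GC correction (0.97, limma-trend adjusted p = 0.0329, under 2-fold), which left 1 of the list higher. Tlr2, the receptor for bacterial lipoproteins, measured 3.15 and 5.66 RPKM in TGEMs and 58.0 and 65.0 RPKM in Scramble (−3.57 ± 0.34, limma-trend adjusted p = 0.00281), although KLA-treated TGEMs reached 92.2 RPKM. Of 13 Fc and complement receptors 4 were called higher, among them the neonatal Fc receptor Fcgrt (1.63), the inhibitory Fcgr2b (1.52) and the integrin chain Itgb2 (1.23), and 2 were lower. The calls of Fcgrt (1.14) and Itgb2 (0.97) were lost without the C57Bl/6EiJ library, and also with no filter on low values (limma-trend adjusted p = 0.0612 and limma-trend adjusted p = 0.0851). That of Fcgrt was lost with limma-voom too, and that of Itgb2 with a pseudocount of 0.1.

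Among 13 scavenger and apoptotic cell receptors 2 were called higher and 3 lower, beside 5.68% and 10.7% of all members. Cd36, which takes up oxidised lipoproteins and fatty acids, measured 385 and 738 RPKM in TGEMs and 110.3 and 156 RPKM in Scramble (2.02 ± 0.41, limma-trend adjusted p = 0.0188), a call that was lost without the C57Bl/6EiJ library (1.55, adjusted p = 0.0526). Marco, Stab1 (−2.32) and the class A receptor Msr1 (86.6 and 45.3 RPKM in TGEMs and 326 and 292 RPKM in Scramble, −2.28 ± 0.39) were lower, and the call of Stab1 was lost without the Balb/cJ library (−1.54, limma-trend adjusted p = 0.0578) and with no filter on low values (limma-trend adjusted p = 0.0534). Of 12 C-type lectins 6 were called lower and 2 higher (4 and 3 with the GC correction), beside 10.7% and 5.68% of all members. Of those higher, Clec7a, the receptor for fungal beta-glucan, measured 612 and 535 RPKM in TGEMs and 42.9 and 47.0 RPKM in Scramble (3.64 ± 0.29, limma-trend adjusted p = 0.00174), and 97.2% of the 50-base windows of its transcript also occurred in an annotated pseudogene. Clec4e, also known as Mincle, measured 13.3 and 3.74 RPKM in TGEMs and 166 and 194 RPKM in Scramble (−4.46 ± 0.54), and Clec4a1 (−3.87), Clec4n (−3.44), Clec5a (−2.67) and Clec4a2 (−1.43) were lower too, the call of Clec4a2 being lost with the GC correction (−0.97, limma-trend adjusted p = 0.0689).

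Of 12 chemoattractant receptors 2 were called higher and 2 lower, beside 5.68% and 10.7% of all members. More were called lower without the C57Bl/6EiJ library. Ptafr, the receptor for platelet-activating factor, measured 155 and 171 RPKM in TGEMs and 7.41 and 5.46 RPKM in Scramble (4.47 ± 0.30), and Ccr1 rose by 2.77, a call lost without the C57Bl/6EiJ library (2.27, limma-trend adjusted p = 0.0264), where its mean was under 16 RPKM. The formyl peptide receptor Fpr1 had 0 reads in all 5 TGEM libraries and 123 and 93.9 RPKM in Scramble, at least 654-fold lower in TGEMs, and Fpr2 was at least 260.2-fold lower. Of the 50-base windows of the Fpr2 transcript 34.0% also occurred in an annotated pseudogene, so that its values at 0 are uncertain. Their high values were not shared by all iBMDM libraries, since the JunDKO libraries held 0.976 and 0.288 RPKM of Fpr1 and 0 and 2.56 of Fpr2.

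Of the cytokine receptors 8 of 24 were called higher in TGEMs (5 without the C57Bl/6EiJ library) and 1, Csf1r, lower (5.68% and 10.7% of all members). Il7r, the interleukin-7 receptor chain, measured 427 and 256 RPKM in TGEMs and 11.0 and 16.2 RPKM in Scramble (4.53 ± 0.38, limma-trend adjusted p = 0.00219). Il3ra, the specific chain of the interleukin-3 receptor, measured 35.9 and 122 RPKM in TGEMs and 0 and 0 RPKM in Scramble. The beta chain that it shares with the GM-CSF receptor, Csf2rb, measured 142 and 233 RPKM in TGEMs and 46.7 and 38.0 RPKM in Scramble (2.08). The G-CSF receptor Csf3r rose by 2.31 and Tgfbr2 by 1.97 on the log2 scale. Of 16 integrins and adhesion proteins Itgb7 (4.48), Itgax and Selplg (1.29) were among 4 called higher (7 without the Balb/cJ library), and Itgal (2.88 and 3.45 RPKM in TGEMs and 54.7 and 50.8 RPKM in Scramble, −3.69 ± 0.28), Itga4 (−2.44) and Itgam among 3 lower. Of 14 paired and inhibitory receptors Trem2 (753 and 907 RPKM in TGEMs and 299 and 226 RPKM in Scramble, 1.66 ± 0.32), Cd300a (1.60) and Cd300lf (1.49) were higher and 2 were lower (4 without the Balb/cJ library), and the call of Cd300lf was lost without the C57Bl/6EiJ library (1.17, limma-trend adjusted p = 0.0716). Siglece was at 0 in TGEMs (at least 211-fold lower), and sialoadhesin (Siglec1) fell by 3.51 on the log2 scale with 1.68 and 16.8 RPKM in the 2 strains, a call lost with no filter on low values (limma-trend adjusted p = 0.0569).

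**Figure D3:**
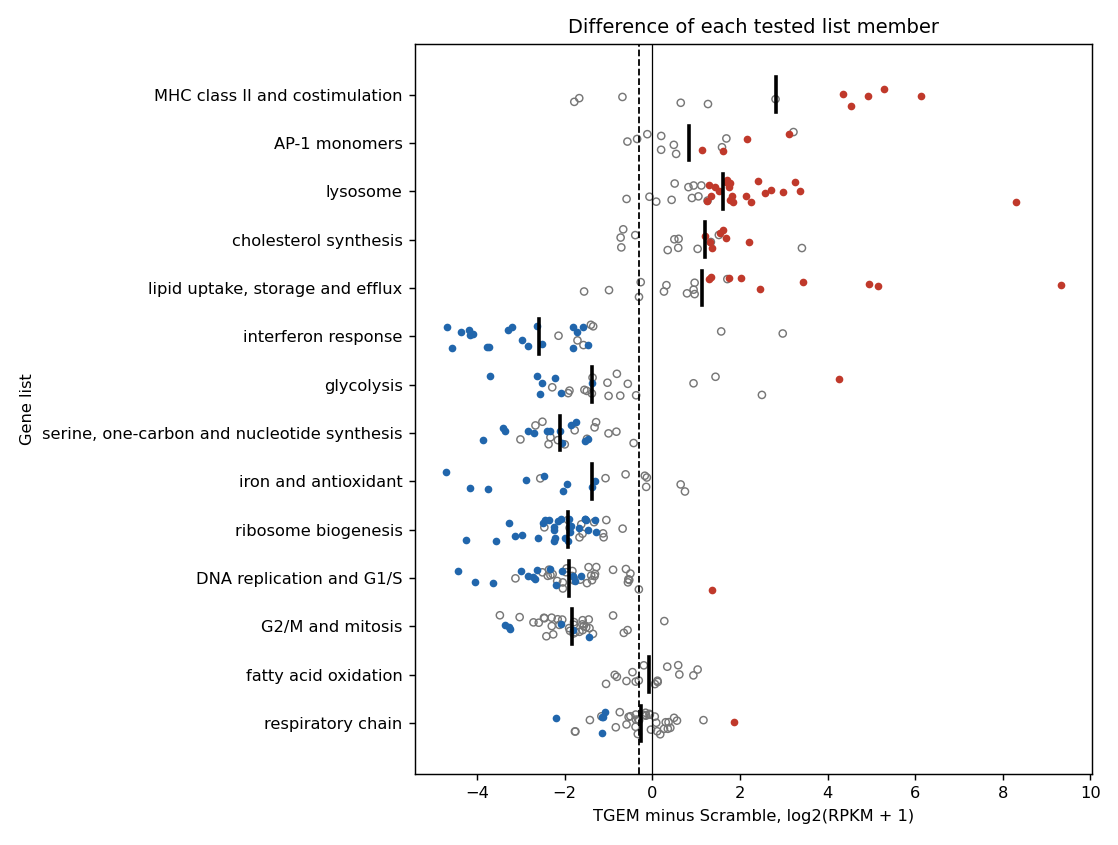
Log2 difference of every tested member (TGEM minus Scramble, horizontal axis) in 14 gene lists (vertical axis), called genes filled in red or blue, genes not called as open circles, list medians as bars and the median of all members (−0.31) as a dashed line. Members of the lysosome list lie almost wholly to the right and those of the ribosome biogenesis list wholly to the left, while fatty acid oxidation and respiratory chain genes straddle the dashed line.

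Of 247 tested metabolic genes 38 were called higher in TGEMs and 50 lower. Of the 196 that reached 16 RPKM these were 19.4% and 25.5%, the lower share being near the 25.0% of all members at that level and the higher share above their 13.2%. The higher ones lay mostly in the lists of the lysosome, of lipid handling and of cholesterol synthesis, and the lower ones in those of glycolysis, nucleotide synthesis, amino acid handling and antioxidant defence. The lysosome list held 21 called higher and 0 lower of 32 tested (25 and 0 at an unadjusted p under 0.05), with a median of 1.61, and 25 of the 32 had all 5 TGEM libraries above all 8 iBMDM libraries, as did 8.36% of all members. Psap, the precursor of the saposins that help to degrade sphingolipids, measured 6778 and 10672 RPKM in TGEMs and 967 and 821 RPKM in Scramble (3.25 ± 0.37, limma-trend adjusted p = 0.00374). The glycoprotein Gpnmb measured 7308 and 8434 RPKM in TGEMs and 869 and 669 RPKM in Scramble (3.36 ± 0.33). The heparan sulphate degrading enzyme Naglu measured 102 and 126 RPKM in TGEMs and 16.4 and 11.1 RPKM in Scramble (2.98 ± 0.32). Of the proton pump, which acidifies the organelle, the subunit Atp6v0d2 measured 817 and 638 RPKM in TGEMs and 0.831 and 1.88 RPKM in Scramble (8.30 ± 0.35). Tfeb, the factor that activates lysosomal genes through the letters CACGTG, measured 28.7 and 44.2 RPKM in TGEMs and 4.58 and 4.65 RPKM in Scramble (2.71 ± 0.33, limma-trend adjusted p = 0.00437). Summed over the list, the level was 37481 and 48326 RPKM in TGEMs and 9408 and 8406 in Scramble.

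RefSeq promoters of 300 bases (250 before to 50 after the start, GRCm38.p6) were matched to 8064 of the 10289 members. CACGTG was found in 9 of 24 matched promoters of the lysosome list (37.5%), in 10.6% of all matched members and in 7.15% of all 32851 promoters of the table. The 3 called members with the largest difference among those that hold these letters are shown with CACGTG in capitals, a choice made after the values were seen. Ctsl, which encodes cathepsin L, measured 1638 and 1154 RPKM in TGEMs and 228 and 229.8 RPKM in Scramble (2.58 ± 0.32), and Gaa, which degrades glycogen, 46.3 and 53.4 RPKM in TGEMs and 15.6 and 11.1 RPKM in Scramble (1.84 ± 0.31).
Naglu (chr11:101069844-101070143, plus strand): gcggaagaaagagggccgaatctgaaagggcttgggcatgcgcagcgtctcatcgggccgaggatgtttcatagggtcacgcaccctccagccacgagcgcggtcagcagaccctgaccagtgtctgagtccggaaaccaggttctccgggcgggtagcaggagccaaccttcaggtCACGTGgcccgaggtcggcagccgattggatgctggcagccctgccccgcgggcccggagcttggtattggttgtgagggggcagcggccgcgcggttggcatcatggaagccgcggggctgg
Ctsl (chr13:64370471-64370770, minus strand): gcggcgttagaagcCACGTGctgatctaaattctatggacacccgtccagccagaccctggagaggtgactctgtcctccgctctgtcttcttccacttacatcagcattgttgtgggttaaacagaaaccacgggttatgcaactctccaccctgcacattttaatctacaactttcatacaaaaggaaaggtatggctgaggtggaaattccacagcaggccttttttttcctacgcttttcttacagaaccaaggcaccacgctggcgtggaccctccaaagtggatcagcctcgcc
Gaa (chr11:119267713-119268012, plus strand): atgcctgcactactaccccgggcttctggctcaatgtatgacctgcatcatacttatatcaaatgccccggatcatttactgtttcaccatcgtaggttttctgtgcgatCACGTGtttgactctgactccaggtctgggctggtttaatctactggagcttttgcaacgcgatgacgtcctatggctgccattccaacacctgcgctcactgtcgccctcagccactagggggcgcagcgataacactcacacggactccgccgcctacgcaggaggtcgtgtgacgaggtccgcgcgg
Counted from the start of the gene, the first letter of the match lies at −73 in Naglu, −236 in Ctsl and −140 in Gaa. A match of letters is a description and not a measured binding site.

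Of 20 genes of lipid uptake, storage and efflux 9 were called higher and 0 lower (2 lower at an unadjusted p under 0.05), with a median of 1.13. Beside the counts of this list and of the cholesterol and fatty acid lists below stand 5.68% of all members called higher and 10.7% lower. Without the C57Bl/6EiJ library 7 were called higher and 2 lower, and with equal library medians 13 were higher. Among the 11 not called, the cholesterol efflux transporter Abca1 measured 6.32 and 21.2 RPKM in TGEMs and 37.0 and 35.9 RPKM in Scramble (−1.56, limma-trend adjusted p = 0.0757). The fatty acid binding protein Fabp4 measured 260.2 and 368 RPKM in TGEMs and 22.8 and 33.1 RPKM in Scramble (3.44 ± 0.34). The phospholipid transfer protein Pltp measured 417 and 243 RPKM in TGEMs and 11.3 and 7.84 RPKM in Scramble (4.94 ± 0.38). Of the lipases that empty lipid droplets, Pnpla2 differed by 2.45 and Mgll was at 0 in Scramble and at least 175-fold higher in TGEMs, and Apoe, Cd36 and 3 more made up the list. Cholesterol synthesis genes were higher in 7 of 19 (4 without the C57Bl/6EiJ library) and lower in 0 (1 at an unadjusted p under 0.05), with a median of 1.20 and smaller differences. Fdft1, the squalene synthase, measured 61.4 and 82.1 RPKM in TGEMs and 15.3 and 14.0 RPKM in Scramble (2.20 ± 0.30, limma-trend adjusted p = 0.00607), Sc5d differed by 1.67, Dhcr7 by 1.61 and the controlling factor Srebf2 by 1.55. The calls of Dhcr7 (1.37, limma-trend adjusted p = 0.0464, with a mean under 16 RPKM) and Srebf2 (1.12, limma-trend adjusted p = 0.0786) were lost without the C57Bl/6EiJ library, and that of Srebf2 also with the GC correction (0.93, limma-trend adjusted p = 0.0541) and with no filter on low values (limma-trend adjusted p = 0.0532). Only 2 of the 19 kept all 5 TGEM libraries above all 8 iBMDM libraries, and the sum of the list reached 646 RPKM in the edited lines against 446 and 501 in unstimulated TGEMs and 227 and 224 in Scramble. In fatty acid synthesis Fasn (4.14 and 5.36 RPKM in TGEMs and 28.0 and 18.3 RPKM in Scramble, −2.05 ± 0.34) and the desaturase Scd2 (−1.93) were lower and the elongase Elovl1 higher (1.21), which was not called without the Balb/cJ library (1.14, limma-trend adjusted p = 0.0501). Of 16 fatty acid oxidation genes 0 were called in either direction by limma-trend, with 3 lower and 0 higher at an unadjusted p under 0.05 and a median of −0.07 that turned to 0.22 with equal library medians.

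CCAAT, the core of the NF-Y site, was found in 11 of 12 matched promoters of the cholesterol list (91.7%) and in 38.4% of matched members. The 2 called members with the largest difference among them are shown with these letters (ATTGG on the printed strand) in capitals.
Sc5d (chr9:42264251-42264550, minus strand): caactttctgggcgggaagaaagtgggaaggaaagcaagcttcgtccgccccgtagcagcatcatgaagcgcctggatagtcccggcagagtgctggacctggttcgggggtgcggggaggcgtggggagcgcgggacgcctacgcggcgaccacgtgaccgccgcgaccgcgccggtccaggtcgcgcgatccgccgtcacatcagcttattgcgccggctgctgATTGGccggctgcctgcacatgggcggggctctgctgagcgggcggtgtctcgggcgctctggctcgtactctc
Srebf2 (chr15:82147019-82147318, plus strand): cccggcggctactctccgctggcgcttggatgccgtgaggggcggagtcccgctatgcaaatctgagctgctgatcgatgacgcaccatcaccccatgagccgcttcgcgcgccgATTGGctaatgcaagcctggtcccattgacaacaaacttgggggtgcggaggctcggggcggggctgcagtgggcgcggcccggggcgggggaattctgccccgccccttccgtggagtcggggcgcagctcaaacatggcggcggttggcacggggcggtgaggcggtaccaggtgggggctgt

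Of 24 glycolysis genes, which split glucose for energy, 7 were called lower in TGEMs (14 without the C57Bl/6EiJ library, and 11 with all 13 libraries in the fit) and 1 higher, beside 10.7% and 5.68% of all members, with a median of −1.38, and 19 lay below Scramble in both TGEM libraries, as did 44.6% of all members. The pyruvate kinase Pkm measured 180.2 and 361 RPKM in TGEMs and 1575 and 1380 RPKM in Scramble (−2.53 ± 0.41, limma-trend adjusted p = 0.00979). Enolase 1 (Eno1) measured 6.54 and 64.8 RPKM in TGEMs and 339 and 250.0 RPKM in Scramble and differed by −3.71 ± 0.95. The neuronal form Eno2 measured 20.7 and 19.5 RPKM in TGEMs and 0.213 and 0 RPKM in Scramble (4.26 ± 0.31) and was the 1 gene called higher. Pdk1 (−2.55), Aldoc (−2.23) and the sugar transporter Slc2a6 (−2.62) were also lower. The call of Pdk1 was lost with a pseudocount of 0.1 (−2.88, limma-trend adjusted p = 0.0600), with no filter on low values (limma-trend adjusted p = 0.0712) and with the GC correction (−2.29, limma-trend adjusted p = 0.0710). That of Eno1 was lost with no filter (limma-trend adjusted p = 0.0664). In the pentose phosphate pathway Pgd (124 and 164 RPKM in TGEMs and 825 and 619 RPKM in Scramble, −2.32 ± 0.33) and Rpe (−1.56) were called lower of 6 tested. The call of Rpe was lost without the Balb/cJ library (−1.33, limma-trend adjusted p = 0.100), without the C57Bl/6EiJ library (−1.80, limma-trend adjusted p = 0.0655) and with the GC correction. Without the Balb/cJ library 1 gene of the list was called lower.

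Many genes of glycolysis have near-identical pseudogenes, which can take or withhold reads. The share of 50-base windows of a gene's longest GENCODE transcript that also occurs, letter for letter, in an annotated pseudogene was 52.8% for Eno1 and 30.5% for Pkm. Over all members 300 genes had 20% or more of their windows shared, and of these 24.7% were called lower in TGEMs, against 10.3% of the other matched members. Without such genes 19 glycolysis genes were left, 5 called lower and 1 higher, with a median of −1.38 as before. Values of Eno1, Pkm and other genes with a large share are therefore uncertain, and the part of shared sequence in their differences was not tested.

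The citric acid cycle and respiratory chain lists cover mitochondrial energy metabolism. In the citric acid cycle list 6 of 19 were called lower (2 without the Balb/cJ library) and 0 higher (12 and 0 at an unadjusted p under 0.05), beside 10.7% and 5.68% of all members. Among these 6 were Idh3a (3.39 and 11.2 RPKM in TGEMs and 42.9 and 36.9 RPKM in Scramble, −2.48 ± 0.51), Cs (−1.54), Fh1 (−1.39) and Dld (−1.35). The median was −0.84. Without the Balb/cJ library Cs (−1.09, limma-trend adjusted p = 0.0560), Fh1 (−1.24, limma-trend adjusted p = 0.0707) and Dld (−1.28, limma-trend adjusted p = 0.0530) were not called, and without the C57Bl/6EiJ library Fh1 was not (−1.54, limma-trend adjusted p = 0.0531). The GC correction ended the calls of Cs (−1.39, limma-trend adjusted p = 0.0502) and Dld (−0.88, limma-trend adjusted p = 0.0706), and no filter on low values that of Cs (limma-trend adjusted p = 0.0527). Irg1, which diverts the cycle to itaconate, measured 6.29 and 1.87 RPKM in TGEMs and 342 and 305 RPKM in Scramble (−6.15 ± 0.48, limma-trend adjusted p = 0.00166), but KLA-treated TGEMs reached 824 RPKM and the JunDKO libraries 4.49 and 3.13. Of 40 respiratory chain genes 5 were lower (9 without the C57Bl/6EiJ library), namely Uqcrb (−2.19), Ndufb3 (−1.16), Uqcrc2 (−1.14), Atp5b (−1.12) and Atp5c1 (−1.08), and Ndufs7 was higher (1.87), against 10.7% and 5.68% of all members. Without the Balb/cJ library Atp5b (−0.85, limma-trend adjusted p = 0.0743), Atp5c1 (−0.87, limma-trend adjusted p = 0.0532) and Ndufs7 (1.75, limma-trend adjusted p = 0.0562) lost their calls. Without the C57Bl/6EiJ library Ndufb3 did (−0.998, limma-trend adjusted p = 0.0450), its difference being under 2-fold. With the GC correction Ndufs7 (1.07, limma-trend adjusted p = 0.0689), Ndufb3 (−0.82, limma-trend adjusted p = 0.0561) and Uqcrc2 (−0.77, limma-trend adjusted p = 0.0873) were not called. With no filter on low values Atp5b (limma-trend adjusted p = 0.0798) and Atp5c1 (limma-trend adjusted p = 0.0587) were not. The median of the list was −0.25 beside −0.31 over all members, and it was 0.04 with equal library medians, where 1 gene was lower.

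Serine, one-carbon and nucleotide synthesis genes were lower without exception in sign. All 27 tested differences were below 0, 13 were called lower and 0 higher (25 and 0 at an unadjusted p under 0.05), the median was −2.10, and 24 had all 5 TGEM libraries below all 8 iBMDM libraries, as did 24.2% of all members. Of the 27, 5 had a mean under 1 RPKM in TGEMs and passed the limit through Scramble. The mitochondrial folate enzyme Mthfd1l measured 2.88 and 1.28 RPKM in TGEMs and 43.8 and 40.3 RPKM in Scramble (−3.85 ± 0.36, limma-trend adjusted p = 0.00269). Psat1 of serine synthesis (6.12 and 3.12 RPKM in TGEMs and 59.0 and 53.3 RPKM in Scramble, −3.40 ± 0.36), CTP synthase (Ctps, −3.37), the ribonucleotide reductase subunit Rrm1 (−2.85) and Atic of purine synthesis (−2.70) followed. In arginine, polyamine and amino acid handling 7 of 18 were lower and 0 higher (1 at an unadjusted p under 0.05). Of all members 10.7% were called lower and 5.68% higher, which applies to the calls of both lists. The cystine transporter Slc7a11 measured 2.27 and 1.51 RPKM in TGEMs and 63.9 and 85.4 RPKM in Scramble (−4.71 ± 0.32), the polyamine enzymes Odc1 and Srm differed by −3.50 and −3.23, and asparagine synthetase (Asns, −3.15) and the glutamine transporter Slc1a5 (−1.67) were lower too. Of the windows of Odc1, 42.2% were shared with pseudogenes.

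Iron and antioxidant genes were lower in 9 of 17 and higher in 0 (0 also at an unadjusted p under 0.05), beside 10.7% and 5.68% of all members. With equal library medians 1 was higher, and without the Balb/cJ library 1 was. The list had a median of −1.38. The peroxiredoxin Prdx1 measured 233 and 323 RPKM in TGEMs and 3769 and 3651 RPKM in Scramble (−3.75 ± 0.32, limma-trend adjusted p = 0.00229). The glutathione synthesis subunit Gclm measured 28.6 and 14.2 RPKM in TGEMs and 359 and 405 RPKM in Scramble (−4.17 ± 0.39), and its partner Gclc differed by −2.47. The iron exporter Slc40a1, ferroportin, measured 1.77 and 2.03 RPKM in TGEMs and 18.3 and 22.4 RPKM in Scramble (−2.87). For Prdx1 the Scramble libraries were the 2 highest of the 8 iBMDM libraries, which spanned 406 to 3769 RPKM against 233 to 347 in the 5 TGEM libraries. For Slc7a11 the iBMDM libraries spanned 0.629 to 85.4 RPKM and overlapped with TGEMs.

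**Figure D4:**
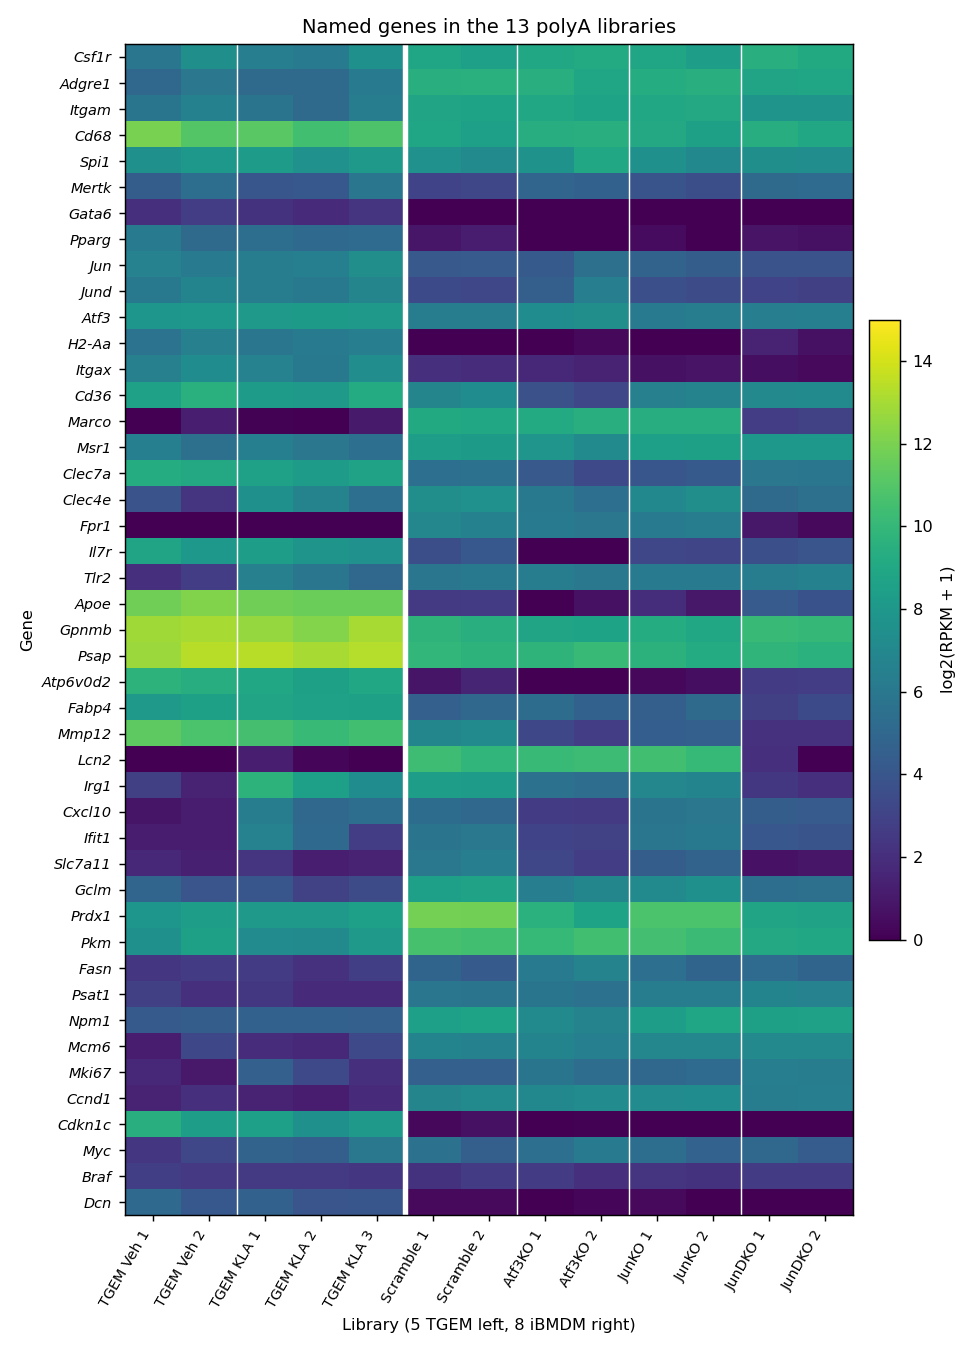
Level, log2(RPKM + 1) by colour, of 45 named genes (rows) in the 13 polyA libraries (columns), 5 TGEM libraries left of the thick line and 8 iBMDM libraries right of it. Apoe, Pparg, Atp6v0d2 and Cdkn1c separate the sides in every library, whereas Marco, Lcn2, Fpr1 and Slc7a11 are high in Scramble and low in both JunDKO libraries.

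Genes of proliferation were lower in TGEMs. Over the class of 168 tested genes 59 were called lower and 4 higher, and the median difference was −1.78. Of the 73 that reached 16 RPKM 80.8% were lower and 5.48% higher, beside 25.0% and 13.2% of all members at that level. In the DNA replication list 14 of 44 were lower and 1 higher, with a median of −1.89, and 36 had all 5 TGEM libraries below all 8 iBMDM libraries, beside 24.2% of all members. Of the 44, 9 had a mean under 1 RPKM in TGEMs and passed the limit through Scramble. The replicative helicase subunit Mcm6 measured 1.30 and 8.72 RPKM in TGEMs and 109 and 94.8 RPKM in Scramble (−4.44 ± 0.66, limma-trend adjusted p = 0.00771). The cofactor of maintenance methylation Uhrf1 measured 0.877 and 0.875 RPKM in TGEMs and 32.1 and 28.0 RPKM in Scramble (−4.04 ± 0.29). Mcm7 (−3.63) and the single-strand binding protein Rpa2 (−3.0) were lower as well, and 26.0% of the windows of Mcm7 were shared with pseudogenes. The exception was Rfc2, a subunit of the clamp loader, with 47.7 and 37.3 RPKM in TGEMs and 15.8 and 15.9 RPKM in Scramble (1.35 ± 0.29).

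Mitotic genes were low in both kinds of cell. Of 38 tested in the G2/M list 32 did not reach 16 RPKM in either group, and the other 6 were all called lower (34 lower and 0 higher at an unadjusted p under 0.05), with a median over the list of −1.84. In 37 of the 38 every one of the 5 TGEM libraries lay below every one of the 8 iBMDM libraries, beside 24.2% of all members. However, 16 of the 38 had a mean under 1 RPKM in TGEMs and passed the limit through Scramble. Mki67, the proliferation marker Ki-67, measured 2.12 and 1.02 RPKM in TGEMs and 23.4 and 23.1 RPKM in Scramble (−3.27 ± 0.34, limma-trend adjusted p = 0.00319), although 1 KLA-treated TGEM library reached 22.9 RPKM. The topoisomerase Top2a measured 3.54 and 1.42 RPKM in TGEMs and 32.6 and 34.1 RPKM in Scramble (−3.37 ± 0.38). The chromosomal passenger subunit Cdca8 measured 1.06 and 0.543 RPKM in TGEMs and 15.1 and 17.0 RPKM in Scramble (−3.26 ± 0.32). Cyclin A2 (Ccna2, −2.09) and survivin (Birc5, −1.80) were also lower, the call of Birc5 being lost without the C57Bl/6EiJ library (−1.37, limma-trend adjusted p = 0.0528). The Scramble libraries had the lowest sums of this list among the iBMDM libraries (385 and 365 RPKM, and up to 1167 in the edited lines), all above the 78.9 RPKM that the TGEM libraries reached at most. In bulk samples fewer cycling cells and less of these transcripts per cell cannot be told apart.

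Promoters of the G2/M list held TTTGAA, the letters of the cell cycle homology region (CHR), in 22 of 30 matched promoters (73.3%), against 11.9% of all matched members, and CCAAT in 24 (80.0%) against 38.4%. The 3 called members with the largest difference among those that hold both are shown with both in capitals on either strand, and in Cdca8 one CCAAT match overlaps with TTTGAA.
Top2a (chr11:99024140-99024439, minus strand): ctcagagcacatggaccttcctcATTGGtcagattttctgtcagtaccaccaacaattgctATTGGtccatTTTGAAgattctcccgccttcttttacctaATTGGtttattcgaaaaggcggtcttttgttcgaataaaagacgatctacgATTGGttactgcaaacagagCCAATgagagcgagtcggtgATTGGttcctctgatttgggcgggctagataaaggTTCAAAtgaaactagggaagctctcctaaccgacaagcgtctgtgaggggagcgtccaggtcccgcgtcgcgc
Mki67 (chr7:135716330-135716629, minus strand): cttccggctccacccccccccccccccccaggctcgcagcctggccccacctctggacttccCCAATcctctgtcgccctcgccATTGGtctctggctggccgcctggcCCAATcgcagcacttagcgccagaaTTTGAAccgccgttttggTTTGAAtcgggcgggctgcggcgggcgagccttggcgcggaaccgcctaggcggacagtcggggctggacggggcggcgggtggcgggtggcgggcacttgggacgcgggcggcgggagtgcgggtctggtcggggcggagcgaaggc
Cdca8 (chr4:124936868-124937167, minus strand): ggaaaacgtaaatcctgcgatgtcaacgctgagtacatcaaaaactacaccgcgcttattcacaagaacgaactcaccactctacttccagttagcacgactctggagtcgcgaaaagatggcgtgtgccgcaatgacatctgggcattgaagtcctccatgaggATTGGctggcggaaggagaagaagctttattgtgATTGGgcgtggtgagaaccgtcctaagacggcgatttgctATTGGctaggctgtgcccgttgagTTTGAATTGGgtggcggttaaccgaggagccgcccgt
Top2a held 6 matches of CCAAT and 2 of TTTGAA, Mki67 held 3 and 2, and Cdca8 held 4 and 1. The E2F letters GGCGGGA were found in 34.3% of matched promoters of the replication list and in 21.9% of all matched members.

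Of 19 cyclins, CDKs and their regulators 6 were called lower and 1 higher, beside 10.7% and 5.68% of all members. Cyclin D1 (Ccnd1) measured 1.80 and 2.98 RPKM in TGEMs and 114 and 137 RPKM in Scramble (−5.23 ± 0.32, limma-trend adjusted p = 0.00112) and 78.7 to 156 RPKM over the 8 iBMDM libraries. Cyclin D3 (Ccnd3, −2.22), Cdk6 (−1.45), the tumour suppressor Trp53 (12.4 and 18.4 RPKM in TGEMs and 59.5 and 48.2 RPKM in Scramble, −1.76) and the inhibitor Cdkn1a (35.1 and 49.4 RPKM in TGEMs and 219 and 179.8 RPKM in Scramble, −2.23 ± 0.32) were lower too, whereas the inhibitor Cdkn1c was the 1 gene called higher. The call of Ccnd3 was lost without the Balb/cJ library (−1.44), with a pseudocount of 0.1 and with no filter on low values (limma-trend adjusted p = 0.0627). Cdkn1c and Cdkn1a, both inhibitors of cyclin-dependent kinases, thus stood in opposite directions, with no overlap between the compared libraries in either.

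Of the oncogenes by which the line was made Myc was called lower in TGEMs and Braf was not called. Of 10 genes of the MYC and MAX network 1 was called lower and 1 higher, near the 10.7% and 5.68% of all members, and of 19 genes of the RAF-ERK pathway and its feedback 5 lower and 1 higher. Myc measured 4.29 and 8.29 RPKM in TGEMs and 49.0 and 22.7 RPKM in Scramble (−2.30 ± 0.48, limma-trend adjusted p = 0.0192), was lower in TGEMs, and spanned 4.29 to 62.5 RPKM over the 5 TGEM libraries and 20.0 to 67.4 over the 8 iBMDM libraries, which overlap. Its call was lost without the Balb/cJ library (−1.89, limma-trend adjusted p = 0.0999) and without the C57Bl/6EiJ library (−2.70, adjusted p = 0.0601). Mnt, an antagonist of MYC, measured 37.8 and 34.4 RPKM in TGEMs and 6.11 and 7.40 RPKM in Scramble (2.26 ± 0.29). Braf (chromosome 6, 39603237 to 39725463) measured 5.98 and 4.63 RPKM in TGEMs and 3.58 and 5.36 RPKM in Scramble, did not separate the groups and did not pass (0.22 ± 0.34, limma-trend adjusted p = 0.652). Exonic values of a gene model do not part transcripts of the mouse gene from those of a viral insert, and whether insert reads are counted here was not tested. The feedback phosphatases and inhibitors of ERK signalling Dusp6 (4.43 and 3.39 RPKM in TGEMs and 69.8 and 57.8 RPKM in Scramble, −3.72 ± 0.30), Spred1 (−2.23) and Dusp4 (−1.77) and the kinase Map2k1 (−1.17) were lower in TGEMs, and Mapk3, which encodes ERK1, was higher (159 and 182 RPKM in TGEMs and 53.3 and 45.1 RPKM in Scramble, 1.77). The call of Map2k1 was lost without the Balb/cJ library (−0.85, limma-trend adjusted p = 0.0486, under 2-fold). It was also lost with equal library medians, with quantile normalization, with a pseudocount of 0.1, with no filter on low values and with a 4-fold limit.

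Ribosome biogenesis genes were lower in TGEMs. Of 38 tested genes 27 were called lower and 0 higher (37 and 0 at an unadjusted p under 0.05), beside 10.7% and 5.68% of all members. The median was −1.92. All 38 lay below Scramble in both TGEM libraries, and 33 had all TGEM libraries below all iBMDM libraries, beside 44.6% and 24.2% of all members. Nucleophosmin (Npm1) measured 18.1 and 20.4 RPKM in TGEMs and 347 and 420.1 RPKM in Scramble (−4.24 ± 0.29, limma-trend adjusted p = 0.00144), with 40.9% of its windows shared with pseudogenes. The snoRNP protein Nop56 (5.22 and 6.81 RPKM in TGEMs and 89.5 and 74.5 RPKM in Scramble, −3.57 ± 0.30) had 17.7% of its windows shared. Its partner Nop58 (−3.13), the methyltransferase Nop2 (−3.26) and nucleolin (Ncl, 51.1 and 16.7 RPKM in TGEMs and 207 and 269 RPKM in Scramble, −2.96 ± 0.54) were lower with under 1% of their windows shared. Npm1 was the only tested member of the list with 20% or more of its windows shared, and without it 26 of 37 were lower. The E-box CACGTG stood in 6 of 33 matched promoters (18.2%), against 10.6% of all matched members.

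Ribosomal protein genes, a set chosen after the values were seen, were lower as well, with a median of −1.81. Of 67 tested 28 were called lower and 0 higher (45 and 0 at an unadjusted p under 0.05), beside 10.7% and 5.68% of all members. Rpl35 measured 2.87 and 0 RPKM in TGEMs and 573 and 343 RPKM in Scramble. Rpl19 measured 0 and 0 RPKM in TGEMs and 126 and 88.0 RPKM in Scramble, and 29.0% of the windows of Rpl35 and 79.3% of those of Rpl19 were shared with pseudogenes. For the 40 genes of the set with 20% or more of their windows shared the median was −2.30, and for the other 27 it was −1.29. Levels at or near 0 for genes that every cell uses are uncertain, and the differences of Rpl35 and Rpl19 cannot be read as changes of the transcripts.

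**Figure D5:**
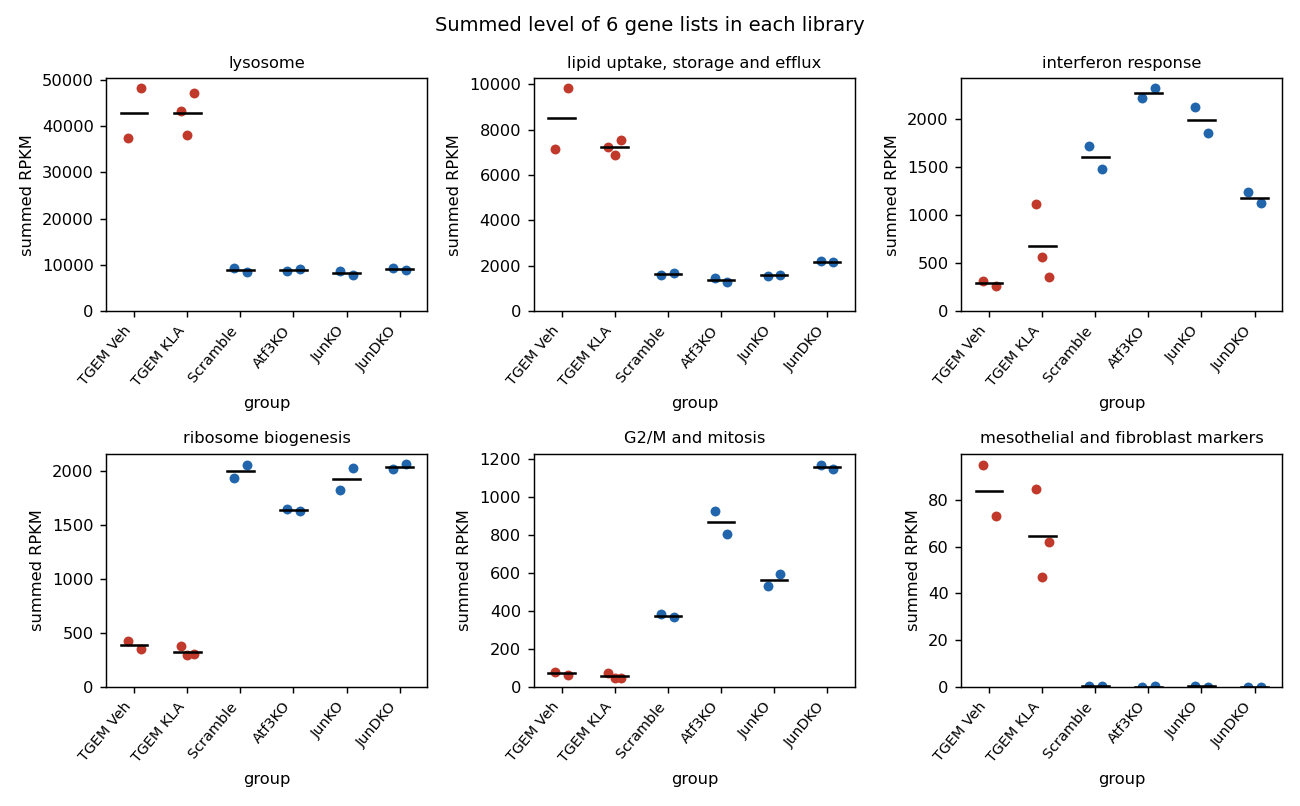
Summed RPKM of the listed genes in the table (vertical axis of each panel, starting at 0) in each of the 13 libraries by group, one point a library and the mean of the group as a bar, for 6 lists. TGEM libraries (red) lie above all iBMDM libraries (blue) in the lysosome and lipid lists and in the mesothelial and fibroblast markers (94.8 and 73.0 RPKM in vehicle TGEMs, at most 0.532 in iBMDMs), and below them in the ribosome biogenesis and G2/M lists.

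Markers of other cells were present in TGEMs. Of 11 mesothelial and fibroblast markers 8 were tested and 3 were called higher. All 8 had a mean under 1 RPKM in Scramble and passed the limit through the TGEM libraries alone, so that their direction was set by the filter. Decorin (Dcn), a proteoglycan of fibroblasts, measured 34.6 and 16.4 RPKM in TGEMs and 0.276 and 0.311 RPKM in Scramble (4.27). The collagen chain Col1a1 measured 20.0 and 13.1 RPKM in TGEMs and 0 and 0 RPKM in Scramble (at least 118-fold), and Col1a2 differed by 4.20. The call of Col1a1 was lost without the Balb/cJ library (3.81, limma-trend adjusted p = 0.0163), where its mean was under 16 RPKM. The defining mesothelial markers Wt1 (2.77 and 3.39 RPKM), Upk3b (2.10 and 2.46) and Krt19 (3.42 and 1.72) were low in TGEMs and at 0 in Scramble. The sum over the list was 94.8 and 73.0 RPKM in TGEMs and 0.276 and 0.532 in Scramble. B cell markers summed to 11.9 and 14.6 RPKM (Cd79a 1.29 and 4.38, Cd79b 5.82 and 6.28), endothelial markers to 6.597 and 2.02 (Kdr 5.28 and 1.80), dendritic cell markers to 2.41 and 3.23, and T and NK cell markers to 1.45 and 0 RPKM in TGEMs. Erythroid markers were at 0 in all 4 libraries. The neutrophil list was higher in Scramble, through S100a8 (13.2 and 8.84 RPKM in TGEMs and 34.8 and 33.2 RPKM in Scramble, −1.56, a call lost in the fit of all 13 libraries, limma-trend adjusted p = 0.0864), with Ly6g at 0. Of the mast cell and eosinophil markers the tryptase Tpsb2 measured 1.19 and 4.46 RPKM in TGEMs and 0 and 0 RPKM in Scramble and Ccr3 0.131 and 0 RPKM in TGEMs and 1.58 and 2.32 RPKM in Scramble. The part of these cells in the higher values of extracellular matrix, adhesion and class II genes such as Fn1, Pdpn, Mamdc2 and H2-Aa was not tested.

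The 2 TGEM libraries differed from each other in many of the listed genes. Of 646 list genes tested 145 differed 2-fold or more between them, 104 higher in C57Bl/6EiJ and 41 higher in Balb/cJ, and 40 of these were called between TGEMs and Scramble. Some wide gaps, in genes chosen after the values were seen, were in genes that were not called. The complement chain C1qb measured 14.5 and 292 RPKM in TGEMs and 371 and 238 RPKM in Scramble. The chemokine Pf4 measured 1.47 and 40.3 RPKM in TGEMs and 10.7 and 21.05 RPKM in Scramble, so that the Scramble values lay between those of the strains. Colec12 (113 and 7.603 RPKM in TGEMs) and the C5a receptor C5ar1 (6.72 and 88.9 RPKM) differed in opposite directions between the strains. With 1 library a strain, strain cannot be told apart from library, depth, the date-like number in the library name, which also differed, or the strain-specific genome to which the Balb/cJ reads were aligned.

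The other 9 libraries give the spread of the same kinds of cell under other conditions. Of 584 genes called higher 387 (66.3%) had all 5 TGEM libraries above all 8 iBMDM libraries, and of 1103 called lower 879 (79.7%) had all below, against 8.36% and 24.2% of all members. The 4 compared libraries are among these 13, so that the called genes are not an independent set. The groups of 13 stood apart in Apoe, Cdkn1c, Pparg, Jun, Mmp12, Psap, Il7r, Csf1r, Adgre1, Ccnd1, Mki67 and Npm1. They overlapped in Lcn2, Irg1, Cxcl10, Ifit1, Tlr2, Clec4e, Cd14, Myc and Saa3, in which either KLA-treated TGEMs or edited iBMDMs reached the values of the other side.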

How the data were processed

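PolyA RNA was sequenced, and 13 of the 17 samples have values in the deposited table; the 4 nascent RNA samples were not analysed here. Per the labels, the authors aligned reads to mm10 with STAR and counted exonic reads with HOMER (versions not given in the sources used here), and the methods align Balb/cJ reads to a genome of that strain. The deposited values are RPKM, which the authors normalised to library size and exonic length. Because RPKM steps gave whole reads for 100% of the low values checked (up to 50 reads, within 0.05 of a whole number), depth was recovered from them. Intervals and floors cover counting error only, with a floor of 3 reads over a group.

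RPKM values were tested as log2(RPKM + 1) by limma-trend (limma 3.58.1, R 4.3.3) with Benjamini-Hochberg adjustment over 10289 genes, 2 libraries against 2. The paper speaks of 2 replicate experiments for its knockout expression data, but it does not say whether the 2 Scramble libraries came from separate cultures. The TGEM libraries are of 2 strains. The p-values therefore measure the spread between these libraries only. On simulated reads with 200 genes changed, 179 were called at 4-fold with 6 unchanged genes called, 194 with 1 at 8-fold and 193 with 6 at 16-fold. The simulation gave all genes and both groups the same spread and changed only genes with a mean of 16 RPKM or more. In the data 19.8% of members differed 2-fold or more between the TGEM libraries and 3.30% between the Scramble libraries. The simulated rates therefore do not give the rates for these libraries.

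The rule for named genes took the 15 called protein-coding genes with the largest difference in each direction, at most 5 called members of each list in each direction, 15 genes whatever their result (such as Spi1, Gata6, Braf and Fth1) and markers of other cells. The members and lists were chosen with earlier results of these data known. Alternatives were other pseudocounts, filters, limits, scalings, GC and length corrections, array weights, limma-voom on the reads, a fit of all 13 libraries, and a fit without each library. Setting genes with pseudogene copies apart, and promoter matches, were added after the data were seen. RefSeq promoters (GRCm38.p6) and GENCODE M21 transcripts were used. Motifs were searched on both strands with overlaps allowed. Python 3.11.15, pandas 2.3.3, scipy 1.17.1 and matplotlib 3.10.9 were used. Some genes are not reported here.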

Additional observations from a re-analysis of the deposited data

Results flagged for a closer look

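Transcripts from the sex chromosomes lie outside the autosomal members, and all 4 compared libraries are labelled male. The values in TGEMs went against that label and those in Scramble did not. Xist, the noncoding RNA of the silent X chromosome, averaged 19.9 RPKM in the 2 TGEM vehicle libraries and was at 0.029 and 0 RPKM in Scramble. Eif2s3y, a Y-linked translation factor gene, averaged 40.3 RPKM in the 2 Scramble libraries and was at 0 and 0.749 RPKM in TGEMs. No sample of the compared groups had enough replicates for the test of a single outlying library.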

How the results depend on the processing

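The number of called genes was 1687, of which 584 were higher and 1103 lower in TGEMs. It stayed within 1.5 times with another pseudocount, filter, scaling, correction, all 13 libraries, limma-voom and array weights (1368 to 1994 genes). It became 2899 (987 higher, 1912 lower) with no RPKM minimum and 692 (284 and 408) with a 4-fold limit. Leaving out 1 library gave 0 to 1793 called genes, 0 to 683 of them higher and 0 to 1134 lower, and the 0 came from leaving out either Scramble library, which left 1 library in that group that is assumed to vary like the TGEMs. Of 189 named genes, 15 lost their call without the Balb/cJ library and 13 without the C57Bl/6EiJ library, and 12 with the GC correction. With equal library medians the median of all genes moved from −0.31 to −0.02, and 51.5% of calls were higher (47.4% with quantile normalization, 34.6% as deposited). Of the named genes, Spi1 was −0.33 with a GC correction, Fth1 was 0.17 with equal medians and 0.29 with quantile normalization, and leaving out 1 library gave −0.021 to 0.45 for Braf and −0.74 to 0.49 for Fth1. List medians turned as follows. Alternative activation was 0.21 with limma-voom. Secreted factors were −0.26 with a pseudocount of 0.1, −0.46 at a mean of 5 RPKM, −0.11 with the GC correction and −0.053 without genes that share sequence with pseudogenes, a setting chosen after seeing the data. Among all members with a matched transcript and under 20% of windows shared, 573 genes were higher and 1018 lower. Toll-like receptors were 0.015 at a mean of 5 RPKM, 0.077 with equal medians and 0.066 with GC. Scavenger receptors were −0.36 at a mean of 5 RPKM and −0.10 with GC. Paired receptors were 0.23 at a mean of 5 RPKM, 0.19 with equal medians and 0.066 with quantile normalization. Fatty acid oxidation was 0.22 and 0.21 under these scalings, and fatty acid synthesis 0.023 and the respiratory chain 0.042 with equal medians. Eosinophil and mast cell markers were −0.98 with limma-voom. Leaving out 1 library gave −0.61 to 1.31 for alternative activation, −0.14 to 0.32 for secreted factors, −0.22 to 1.04 for scavenger receptors, −1.18 to 0.17 for chemokine receptors, −0.034 to 0.34 for integrins, −0.37 to 0.15 for paired receptors, −0.20 to 0.017 for fatty acid oxidation and −0.12 to 0.45 for eosinophil and mast cell markers. The cause of these changes was not tested. No paired analysis was possible because the TGEM libraries carry no replicate numbers of their own. Depth limits genes at a few reads, since 1 TGEM library and both Scramble libraries had 1711540 to 2342455 reads.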
